A study of Homo sapiens with 12 samples.

Results

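Cholesterol synthesis and sterol handling were described through 28 genes, matched by symbol among 57820 gene identifiers and picked for their known roles in the pathway. They comprised 7 enzymes of early synthesis, 3 that form squalene and close the sterol ring, 9 that turn lanosterol into cholesterol, 4 genes of control and transport, and 5 of uptake, esterification and efflux. The 12 RNA-seq libraries all came from PLC/PRF/5, a human hepatoma line. The rescue group (KO_RES, 4 libraries) was made of HKDC1 knockout cells to which HKDC1 had been restored, and the knockout group (KO, 4 libraries) of cells whose HKDC1 had been knocked out. The control group was 4 libraries of cells with the wild-type genotype. The rescue and knockout groups each held 2 lines, numbered 1 and 2, with 2 libraries per line and group, so KO 2_1 is line 2, number 1. KO1 and KO2 denote the knockout libraries of a line, and KO1_RES and KO2_RES its rescue libraries. HKDC1 is related to the hexokinases, which trap glucose in the cell as its phosphate. The labels name neither the edit, nor whether a line is 1 clone, nor the oxygen level, nor whether libraries came from separate cultures, so p-values measure the spread between these libraries, which may be technical.

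Cells build cholesterol from acetyl-CoA through mevalonate and farnesyl pyrophosphate to squalene, close squalene into lanosterol, and trim lanosterol stepwise to cholesterol. When membrane sterol is low, the escort protein SCAP carries SREBP2, the product of SREBF2, out of the endoplasmic reticulum, and the cleaved factor raises transcription of nearly every enzyme of the route. INSIG1 holds the complex back when sterol is plentiful, while LXR receptors, which sense oxysterols, raise the exporters ABCA1 and ABCG1. The liver is a main site of this synthesis.

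The promoters shown here belong to 3 synthesis genes that were lower in KO than in control (TM7SF2, FDPS and MSMO1, chosen after their values were seen) and to SREBF2, the only member whose window held the sterol regulatory element searched for. Each is the 250 bases before the start of transcription, read 5′ to 3′ from RefSeq on GRCh38.p14, a later build than that of the counts. TM7SF2 lies at chr11:65111622-65111871, FDPS at chr1:155308616-155308865, MSMO1 at chr4:165327419-165327668 and SREBF2 at chr22:41832855-41833104, all on the plus strand. Capitals mark matches on either strand to TCACNCCAC (the sterol element that SREBP binds), CCAAT (bound by NF-Y) and GGGCGG (bound by SP1).
TM7SF2: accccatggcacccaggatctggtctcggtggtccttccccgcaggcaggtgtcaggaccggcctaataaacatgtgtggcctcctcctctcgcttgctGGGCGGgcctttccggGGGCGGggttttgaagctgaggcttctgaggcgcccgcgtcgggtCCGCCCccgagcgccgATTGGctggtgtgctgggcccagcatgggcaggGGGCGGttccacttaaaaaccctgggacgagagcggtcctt
FDPS: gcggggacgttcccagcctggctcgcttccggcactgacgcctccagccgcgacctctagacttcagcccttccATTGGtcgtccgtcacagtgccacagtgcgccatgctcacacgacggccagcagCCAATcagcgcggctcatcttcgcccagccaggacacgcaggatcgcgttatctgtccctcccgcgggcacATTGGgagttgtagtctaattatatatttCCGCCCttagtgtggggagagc
MSMO1: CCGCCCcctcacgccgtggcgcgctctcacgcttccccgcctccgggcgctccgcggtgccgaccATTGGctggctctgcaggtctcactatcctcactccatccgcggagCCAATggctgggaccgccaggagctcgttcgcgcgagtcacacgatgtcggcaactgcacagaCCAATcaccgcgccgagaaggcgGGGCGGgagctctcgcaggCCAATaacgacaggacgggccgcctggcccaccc
SREBF2: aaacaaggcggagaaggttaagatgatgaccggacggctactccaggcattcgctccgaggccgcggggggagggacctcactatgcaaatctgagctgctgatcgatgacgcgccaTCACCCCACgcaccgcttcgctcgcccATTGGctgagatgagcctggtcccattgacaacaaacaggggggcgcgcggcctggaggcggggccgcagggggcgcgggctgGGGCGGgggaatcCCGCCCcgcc

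RefSeq windows were found for 23 of the 28 members, 28 windows in all because some genes have several starts. FDFT1, SQLE, ACAT2, ABCG1 and SOAT2 had none in the table. CCAAT occurred in 20 of the 28 windows (71.4%), against 32% of 35116 windows of all genes. GGGCGG occurred in 24 of the 28 (85.7%), against 42.6% of all. The sterol element occurred in 1 of the 28 (3.57%), that of SREBF2 with a match starting 133 bases before the start, against 0.883% of all. A match is a run of letters, and whether a factor binds there was not measured. Only runs that fit the stated letters inside these windows were counted. Variants of the letters and sites outside the windows were not searched for. A window without a match was therefore not shown to lack a site for the factor, the sterol element included.

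Counts over genes lay between 36075411 and 60154638 in KO_RES, 42609910 and 68040103 in KO, and 57333288 and 71853616 in control. HKDC1 itself had 1237, 1546, 507 and 626 CPM (counts scaled to 1000000 per library) in KO_RES 1_1, 1_2, 2_1 and 2_2, 153, 147, 91.2 and 49.3 CPM in KO 1_1, 1_2, 2_1 and 2_2, and 157, 154, 183 and 124 CPM in controls 1 to 4. The rescue libraries thus stood above all others. The KO1 libraries lay inside the control range, so the libraries labelled KO1 were not set apart by HKDC1 mRNA, whereas KO2 was lower than control (-1.14, SE 0.25, adjusted p = 0.0161). Titles were followed for grouping, although the genotype entry disagrees with the title in 4 libraries: KO_RES 1_1, KO_RES 2_1, KO 1_2 and KO 2_2. Controls 1 and 2 stood apart from controls 3 and 4: albumin (ALB), a hepatocyte product, had 908, 822, 23.0 and 28.2 CPM in controls 1 to 4. The 3 hepatocyte markers summed to 93.8 to 788 CPM in KO_RES, 137 to 533 in KO and 1401 to 7104 in control, and 4 epithelial markers summed to at least 2365 CPM in every library. Markers of other cells were low: 5 fibroblast markers reached at most 10.7 CPM with COL1A2 at the floor of 3 counts, 4 blood markers at most 0.323 CPM with CD3E at the floor in all libraries, and 2 endothelial markers at most 2.0 CPM.

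The pathway was expressed in every library. Per kilobase of exon, averaged over the 12 libraries, the highest levels among members were those of HMGCS1 (87.7 CPM per kb), FDPS (85.5) and IDI1 (78.5), and the lowest among the synthesis enzymes those of HSD17B7 (6.65) and CYP51A1 (8.05). The regulators SREBF2 and SCAP had 16 and 13.7 CPM per kb, and INSIG1 had 58.5. NPC1L1 (0.136) and SOAT2 (0.064) were nearly silent, and ABCG1 had 0.544. All 28 members entered the fits of 3 and of 5 groups. SOAT2, which never exceeded 24 counts in a library, had too few for some of the fits on fewer libraries. Reads on the strand opposite to the gene, which were not counted here, made up 19.4% of stranded reads at ACAT2 and 7.49% at MVK. HSD17B7 has a near-identical pseudogene, and how reads were divided between them was not tested.

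Knockout against control asks how cells labelled as lacking HKDC1 differ from control cells. Of the 28 members, 4 fell in KO and 0 rose, with edgeR's quasi-likelihood test and Benjamini-Hochberg adjustment at an adjusted p under 0.05 over 19200 genes. For comparison, 3.41% of all genes tested were called lower and 2.87% higher. The 4 were TM7SF2, FDPS, MSMO1 and DHCR7, all synthesis enzymes. The median log2 fold change was -0.42 over the 28 members and -0.51 over the 19 synthesis enzymes, against 0.01 over all genes. By role it was -0.60 for early synthesis, -0.65 for squalene formation and ring closure, and -0.50 for the steps from lanosterol. It was -0.24 for control and transport and -0.02 for uptake, esterification and efflux, where no gene passed the test. The heat map of all members by library shows that the pattern was uneven within each group.

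**Figure D1:**
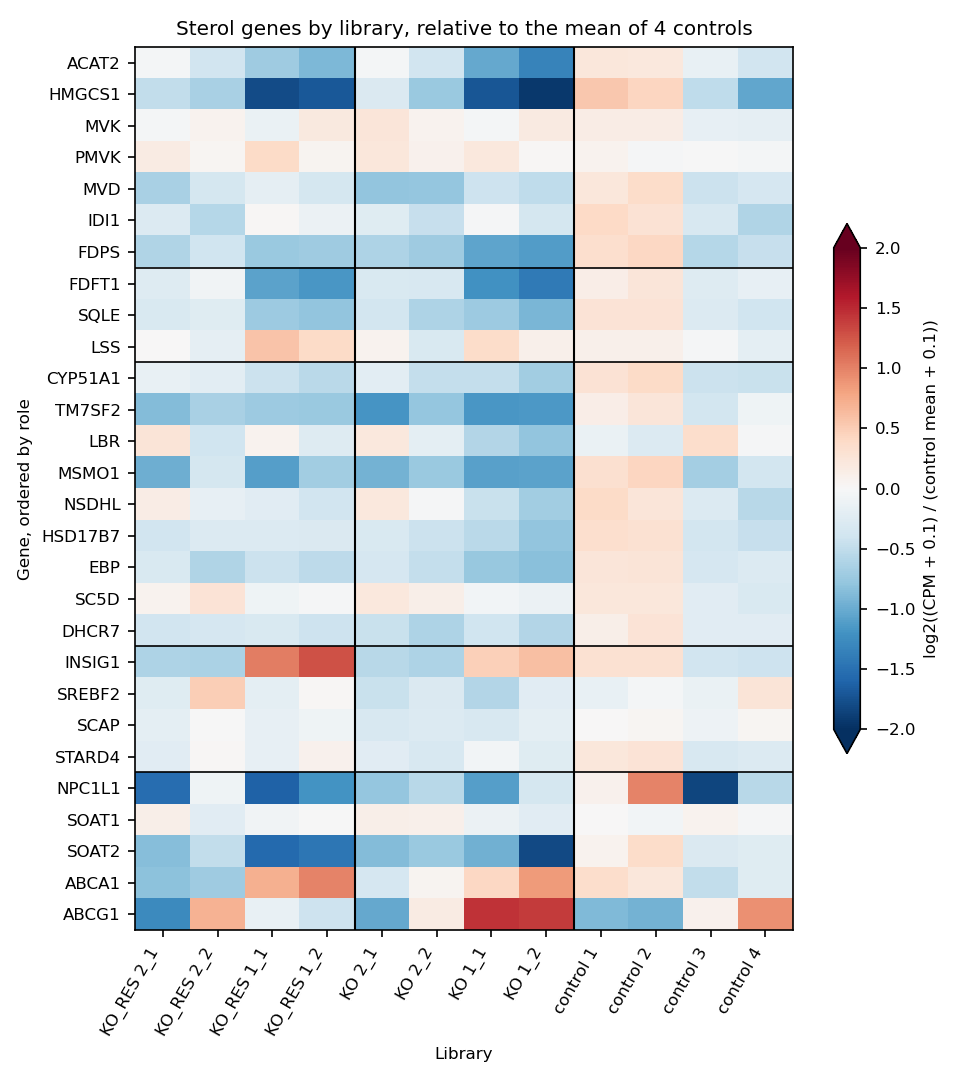
Level of each of the 28 genes (rows, ordered by role) in each of the 12 libraries (columns: KO_RES, KO, control) as the log2 ratio to the mean of the 4 controls, with 0.1 CPM added to each level; red is above and blue below that mean. Controls 1 and 2 were above controls 3 and 4 for 17 of the 19 synthesis genes, and TM7SF2 was below the control mean in every KO_RES and KO library.

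TM7SF2 encodes a sterol reductase of the endoplasmic reticulum that acts just after CYP51A1. It had 41.9, 42.2, 41.6 and 55.2 CPM in KO 1_1, 1_2, 2_1 and 2_2, against 103, 112, 73.1 and 88.6 CPM in controls 1 to 4. The highest KO library, KO 2_2, lay below the lowest control, and the other 3 KO libraries were nearly alike. The mean was 45.2 ± 6.64 CPM in KO and 94.2 ± 17.0 CPM in control (SD, n = 4 each), a log2 change of -1.06 (SE 0.14, adjusted p = 0.00227). It fell in each of the 12 fits that left out a library, with adjusted p from 0.00218 to 0.011. When the 4 libraries with conflicting labels were left out together, it missed the threshold, at -1.18 (SE 0.19, adjusted p = 0.0562). LBR, the lamin B receptor, carries the same reductase activity and did not pass: it had 171, 147, 294 and 223 CPM in KO against 233, 211, 326 and 251 CPM in control, with overlapping groups (-0.29, SE 0.23, adjusted p = 0.499).

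FDPS makes farnesyl pyrophosphate, the last intermediate shared by sterols and protein prenylation. It had 207, 198, 282 and 265 CPM in KO, in the same order of libraries, against 547, 576, 292 and 315 CPM in controls 1 to 4. All KO libraries were below all controls, but KO 2_1 was only just below control 3, and controls 1 and 2 were far above the rest. Its log2 fold change was -0.86 (SE 0.22, adjusted p = 0.0434). MSMO1, a methylsterol oxygenase of the lanosterol branch, had 116, 117, 128 and 147 CPM in KO, against 308, 333, 153 and 190.2 CPM in control. The groups did not overlap, with control 3 close to KO 2_2, and the log2 fold change was -0.95 (SE 0.24, adjusted p = 0.0408). DHCR7, which catalyses the final reduction to cholesterol, had 209, 183, 203 and 179 CPM in KO, against 297, 332, 235 and 235 CPM in control. Here too every KO library was below every control, and the log2 fold change was -0.51 (SE 0.12, adjusted p = 0.0321).

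These 3 calls were lost without single libraries, at adjusted p up to 0.125 for FDPS, 0.117 for MSMO1 and 0.0885 for DHCR7. None of FDPS, MSMO1 and DHCR7 passed without KO 1_1, KO 1_2, KO 2_1, KO 2_2, control 1 or control 2, each left out in turn, leaving TM7SF2 as the 1 member called. Calls over all genes fell too, from 1206 with all libraries to 591, 562, 651, 817, 525 and 509, in the same order. Without control 3 there were 6 members called, EBP and MVD being the additional ones, and 959 calls over all genes. Leaving out KO_RES libraries, which only share the estimate of spread, gave 3 without KO_RES 1_1, 2 without KO_RES 1_2, 3 without KO_RES 2_1 and 5 without KO_RES 2_2. Over all genes these fits gave 1102, 1034, 1123 and 1506 calls, in the same order. When lines were fitted as groups of their own and averaged, 12 members were lower, adding ACAT2, HMGCS1, MVD, FDFT1, SQLE, EBP, SCAP and SOAT2, where 9.36% of all genes tested were called lower. The spread in that fit is between libraries of the same line and group, or of control. Differences between the lines do not enter it, so these calls do not cover variation from line to line. In that fit the log2 fold change was -1.16 for HMGCS1 (adjusted p = 0.027) and -0.81 for FDFT1 (adjusted p = 0.0017).

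Counting libraries that do not overlap gave 8 members below control in KO: FDPS, FDFT1, TM7SF2, MSMO1, DHCR7, SREBF2, SCAP and SOAT2. No member lay above control in this way. Over all genes tested, 8.67% lay below control without overlap and 8.1% above. Of the 19 synthesis enzymes, 12 were below the lowest control in KO 1_1, 14 in KO 1_2, 6 in KO 2_1 and 10 in KO 2_2. In the same libraries 2, 2, 2 and 1 were above the highest control. In KO_RES 1_1, 1_2, 2_1 and 2_2, 9, 10, 5 and 4 were below the lowest control. Counts per library were not made over all genes, so no share stands beside these. The summed level of the 19 was 2384, 2119, 3172 and 2723 CPM in KO 1_1, 1_2, 2_1 and 2_2, against 4665, 4655, 3117 and 2857 CPM in controls 1 to 4. The sum in KO 2_1 was above controls 3 and 4, and KO 1_1, KO 1_2 and KO 2_2 were below all controls.

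**Figure D2:**
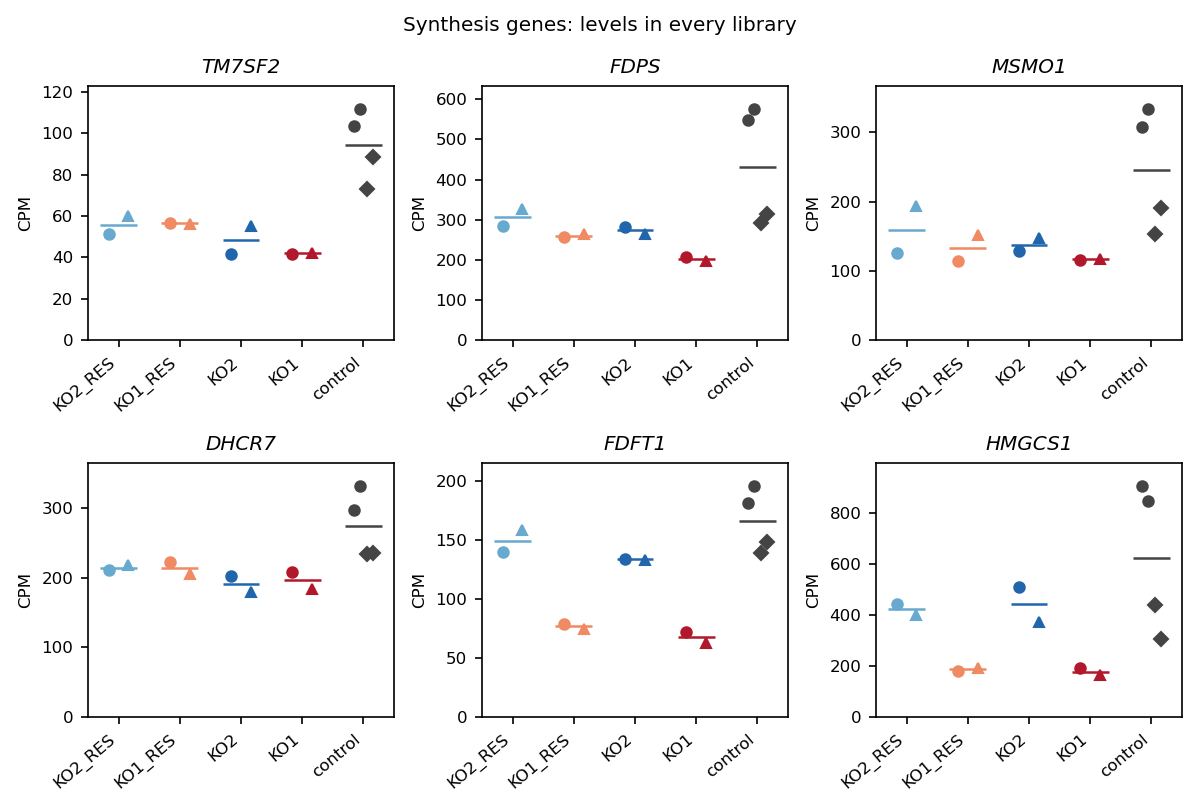
CPM of 6 synthesis genes in every library, with lines as the mean of each group; circles are number 1 and triangles number 2 within a line, and in control circles are controls 1 and 2 and diamonds controls 3 and 4. For TM7SF2 all knockout and rescue libraries lie below the lowest control at 73.1 CPM, while FDFT1 and HMGCS1 are low mainly in line 1.

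The sterol genes also differed among the controls. Controls 1 and 2 were both above controls 3 and 4 for 17 of the 19 synthesis enzymes and 22 of the 28 members, and both below for 2 members. The same order held for 30.4% of all genes tested. ALB moved the same way, and its part in the sterol results was not tested. A share of cells that make this transcript cannot be told apart from a level per cell in bulk RNA. Against controls 1 and 2 alone, 10 members fell in KO, with a median of -0.68 (3.98% of all genes tested were called lower). Those 10 were MVD, FDPS, SQLE, CYP51A1, TM7SF2, MSMO1, HSD17B7, EBP, DHCR7 and STARD4. Against controls 3 and 4 alone, 1 member fell, TM7SF2, at a log2 change of -0.84 (SE 0.14, adjusted p = 0.0228), and the median of the 27 members tested was -0.09 (1% of all genes tested were called lower). SOAT2 had too few counts for that fit.

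Each line was next set against control. In a fit with both lines and both rescues as separate groups, 2 of 28 members fell in KO2 (MVD and TM7SF2), where 5.24% of 20559 genes were called lower. In KO1, 9 fell (ACAT2, HMGCS1, FDPS, FDFT1, SQLE, TM7SF2, MSMO1, EBP and SOAT2), where 9.74% of genes were called lower. No member rose in either line, where 4.79% of genes in KO2 and 8.36% in KO1 were called higher. The median over the 19 synthesis enzymes was -0.35 in KO2 and -0.66 in KO1, against 0.00051 in KO2 and -0.021 in KO1 over all genes. A threshold passed in KO1 and missed in KO2 does not show a difference between them, so the difference itself was tested for each gene. It passed for 3 of the 28 members, where 12% of all genes passed, a similar share.

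**Figure D3:**
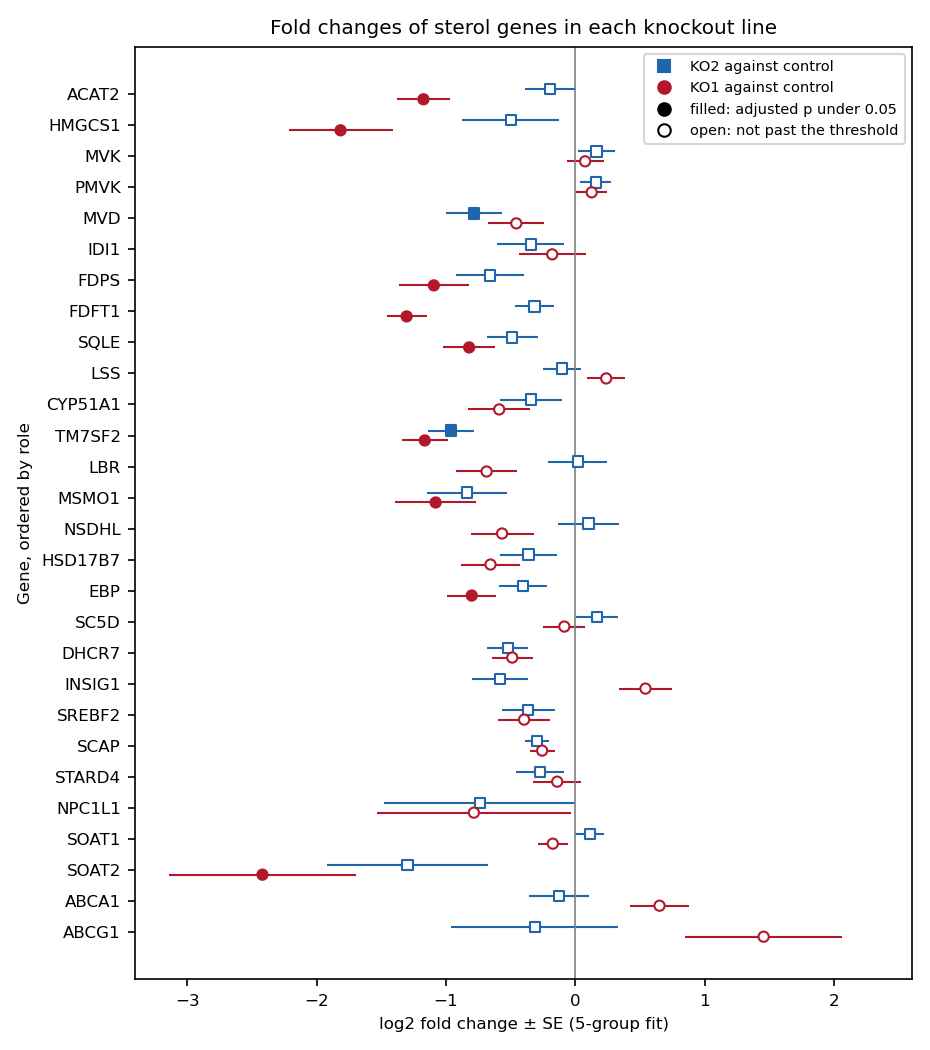
Log2 fold change against control with its standard error for each gene, KO2 as squares and KO1 as circles; filled symbols passed an adjusted p of 0.05. TM7SF2 is the gene filled in both lines, at -0.96 in KO2 and -1.16 in KO1, and 9 genes are filled in KO1.

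TM7SF2 fell in both lines, with a log2 change of -0.96 (SE 0.18, adjusted p = 0.00767) in KO2 and of -1.16 (SE 0.18, adjusted p = 0.00179) in KO1. The KO2 call was lost without KO 2_1, at an adjusted p of 0.12, and the KO1 call was kept whichever library was left out. MVD, the decarboxylase that makes isopentenyl pyrophosphate, had 54.1 and 54.2 CPM in KO2 and 70.1 and 65.9 CPM in KO1, against 109, 121, 68.9 and 74.0 CPM in control. KO2 lay below every control (-0.78, SE 0.22, adjusted p = 0.0477), and KO1 had 1 library above control 3. The MVD call was lost when any library other than control 3 or control 4 was left out. Without KO 2_1 no member was called in KO2. The count in KO2 was 1 without any other KO or KO_RES library or without control 1 or 2, 4 without control 3 and 3 without control 4. Over all genes, 2062 were called in KO2 with all libraries, 530 without KO 2_1 and 682 without KO 2_2. There were 2117 such calls without control 3 and 1925 without control 4.

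The first enzymes of the route were low in KO1. ACAT2, the cytosolic thiolase that joins acetyl-CoA units, had 272 and 215 CPM in KO2 and 137 and 110.4 CPM in KO1, against 326, 322, 253 and 214 CPM in control. KO2 lay within the control range, while KO1 lay below every control. Its log2 fold change was -0.19 (SE 0.20, adjusted p = 0.603) in KO2 and -1.17 (SE 0.21, adjusted p = 0.00376) in KO1, and KO2 minus KO1 was 0.98 (SE 0.23, adjusted p = 0.0202). The difference was called in 9 of the 12 fits that left out a library. HMGCS1, which makes HMG-CoA, had 509.9 and 371 CPM in KO2 and 191 and 163 CPM in KO1, against 907, 844, 439 and 304 CPM in control. KO1 was below all controls and KO2 was not. The fall in KO1 was the largest of the synthesis enzymes in either line (-1.82, SE 0.40, adjusted p = 0.0112), while the difference between lines missed the threshold (1.31, SE 0.43, adjusted p = 0.0764).

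FDFT1, squalene synthase, commits farnesyl pyrophosphate to sterols. It had 134 and 133 CPM in KO2 and 72.0 and 62.5 CPM in KO1, against 181, 196, 139 and 148 CPM in control. Both lines were below every control, KO2 narrowly and KO1 at 0.405 times the control mean. The log2 fold change was -0.32 (SE 0.15, adjusted p = 0.218) in KO2 and -1.30 (SE 0.16, adjusted p = 0.00045) in KO1, and the KO1 call was kept whichever library was left out. The difference between lines was 0.99 (SE 0.17, adjusted p = 0.0045), called in 11 of the 12 fits that left out a library and lost without KO 1_2 (adjusted p = 0.0545).

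SQLE, squalene epoxidase, is a rate-controlling step of the route. It had 185 and 156 CPM in KO2 and 145 and 127 CPM in KO1, against 289, 291, 198 and 182 CPM in control, with KO1 below every control (-0.82, SE 0.20, adjusted p = 0.0175). EBP, a sterol isomerase, had 162 and 146 CPM in KO2 and 119.6 and 114 CPM in KO1, against 241, 242, 161 and 168 CPM in control, and KO1 was again below every control (-0.80, SE 0.19, adjusted p = 0.0153). FDPS and MSMO1 passed in KO1 as well, at -1.09 (SE 0.27, adjusted p = 0.0182) and -1.08 (SE 0.31, adjusted p = 0.0366). In KO2 they had -0.66 (SE 0.26, adjusted p = 0.148) and -0.84 (SE 0.31, adjusted p = 0.119). The differences between lines for SQLE, EBP, FDPS and MSMO1 did not pass, with the lowest adjusted p at 0.273 for EBP.

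The 3 members that passed the test of the difference between lines were ACAT2 and FDFT1, higher in KO2, and INSIG1, lower in KO2. The count was 0 without KO 1_2, 1 without KO 1_1 (FDFT1), 1 without KO 2_1 (FDFT1), 2 without KO 2_2 (ACAT2 and FDFT1) and 4 without control 4 (also HMGCS1). Calls over all genes moved as well, from 2463 with all libraries to 1035, 854, 1143, 936 and 2443, in the same order. In KO1, the line whose HKDC1 mRNA lay in the control range, the count of members called against control was 4 without KO 1_1 and 2 without KO 1_2 (FDFT1 and TM7SF2). Over all genes, the 3721 calls in KO1 became 1265 without KO 1_1 and 1415 without KO 1_2.

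Counts against each pair of controls were further apart for KO2 than for KO1. Against controls 1 and 2 alone, 14 members fell in KO2, where 9.84% of all genes tested were called lower. In KO1, 15 fell and ABCG1 rose, where 13% of all genes were called lower and 11.3% higher. Against controls 3 and 4 alone, 1 member fell in KO2 (TM7SF2, log2 fold change -0.75, adjusted p = 0.0175), where 5.91% of all genes were called lower. In KO1, 8 fell against that pair (ACAT2, HMGCS1, FDPS, FDFT1, SQLE, TM7SF2, LBR and EBP), where 9.67% of all genes were. INSIG1 and ABCA1 rose there, where 7.9% of all genes were called higher. The log2 fold change in KO1 against that pair was -1.09 for FDFT1 (adjusted p = 0.000575) and -1.06 for HMGCS1 (adjusted p = 0.00919).

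The other synthesis enzymes passed no test between groups in the fits of 3 or 5 groups. CYP51A1 removes a methyl group from lanosterol, and NSDHL and HSD17B7 follow it. CYP51A1 spanned 21.1 to 29.5 CPM in KO and 25.1 to 44.7 CPM in control (-0.46, SE 0.20, adjusted p = 0.204). HSD17B7 spanned 22.0 to 30.7 CPM in KO and 27.4 to 47.9 CPM in control (-0.50, SE 0.18, adjusted p = 0.133). NSDHL spanned 50.6 to 95.2 CPM in KO and 55.5 to 107 CPM in control (-0.19, SE 0.24, adjusted p = 0.685). The groups overlapped in these 3 genes, with the KO2 libraries close to or above controls 3 and 4.

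The remaining 5 synthesis enzymes belong to several stages of the route and had smaller log2 fold changes in KO than MVD, whose value was -0.61 (SE 0.19, adjusted p = 0.0756). Mevalonate kinase, MVK, spanned 73.3 to 89.1 CPM in KO and 66.8 to 83.7 CPM in control (0.12, SE 0.12, adjusted p = 0.59). The next kinase, PMVK, spanned 25.5 to 29.1 CPM in KO and 24.2 to 26.2 CPM in control (0.14, SE 0.10, adjusted p = 0.459). IDI1, the isomerase of isopentenyl pyrophosphate, spanned 276 to 372 CPM in KO and 251 to 501 CPM in control (-0.26, SE 0.21, adjusted p = 0.526). LSS, which closes the ring to lanosterol, had 197, 165, 162 and 124 CPM in KO against 165, 165, 151 and 133 CPM in control, with KO 1_1 above and KO 2_2 below every control (0.08, SE 0.18, adjusted p = 0.843). SC5D, a sterol desaturase near the end of the route, spanned 119 to 148 CPM in KO and 103 to 150.5 CPM in control (0.05, SE 0.15, adjusted p = 0.888). Their log2 fold changes lay between -0.26 and 0.14, none past the threshold with all controls. Against controls 1 and 2 alone, IDI1 fell in KO2 (-0.71, adjusted p = 0.0156) and in KO1 (-0.55, adjusted p = 0.0384). It passed in neither line against controls 3 and 4 alone.

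Among the regulators, SREBF2 had 86.3, 111, 94.7 and 106 CPM in KO, against 117, 126, 118 and 155 CPM in control. Every KO library was below every control, by a margin smaller than the spread within either group, and the test was not passed (-0.38, SE 0.17, adjusted p = 0.207). SCAP, the escort of SREBP2, had 77.2, 83.8, 76.6 and 79.9 CPM in KO, against 96.5, 99.3, 89.8 and 98.7 CPM in control. These groups did not overlap either, and SCAP narrowly missed (-0.28, SE 0.08, adjusted p = 0.0618). STARD4, which carries cholesterol between membranes, spanned 66.9 to 81.0 CPM in KO and 66.9 to 101 CPM in control (-0.21, SE 0.15, adjusted p = 0.458).

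INSIG1, the brake on SREBP2 and also one of its targets, had 125 and 119 CPM in KO2 and 256 and 277 CPM in KO1, against 227, 227, 141 and 137 CPM in control. The KO2 libraries were below and the KO1 libraries above every control. Against control the log2 fold change was -0.58 (SE 0.22, adjusted p = 0.124) in KO2 and 0.54 (SE 0.21, adjusted p = 0.101) in KO1, and neither passed. The difference between lines did (-1.13, SE 0.25, adjusted p = 0.0155), in 8 of the 12 fits that left out a library, the calls being lost without any of the 4 KO libraries. In KO1, ACAT2, HMGCS1 and FDFT1 were below every control while INSIG1 was above. Against controls 3 and 4 alone INSIG1 rose in KO1 (log2 fold change 0.94, SE 0.13, adjusted p = 0.00157), and against controls 1 and 2 alone it did not pass (0.21, adjusted p = 0.268). In KO2 it fell against controls 1 and 2 alone (-0.91, adjusted p = 0.00115) and did not pass against controls 3 and 4 alone (-0.19, adjusted p = 0.44).

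The genes of uptake, esterification and efflux had no shared direction. SOAT1, which esterifies cholesterol for storage, had 218, 203, 258 and 254 CPM in KO, against 238, 228, 249 and 234 CPM in control (-0.02, SE 0.11, adjusted p = 0.921). SOAT2, the form of enterocytes and hepatocytes, had 0.0799, 0, 0.0918 and 0.109 CPM in KO, against 0.269, 0.350, 0.186 and 0.195 CPM in control. KO 1_2 held 0 counts, which allows up to 0.0702 CPM at 3 counts. SOAT2 was called lower in KO1 (adjusted p = 0.0425), in 5 of the 12 fits that left out a library, at counts too low for a fold change to be read. NPC1L1, the sterol importer of gut and liver, spanned 0.431 to 0.796 CPM in KO and 0.220 to 2.16 CPM in control, with control 3 below and control 2 above every KO library (-0.76, SE 0.60, adjusted p = 0.504).

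Among the KO libraries both exporters had their highest levels in line 1, without passing the test. ABCA1, which loads cholesterol onto apolipoproteins, had 59.6 and 77.9 CPM in KO2 and 100.1 and 136 CPM in KO1, against 95.8, 87.8, 53.6 and 63.7 CPM in control. KO1 was above every control and KO2 within their range, and neither comparison passed. The log2 fold change was -0.13 (SE 0.23, adjusted p = 0.788) in KO2 and 0.65 (SE 0.23, adjusted p = 0.0726) in KO1. Against controls 3 and 4 alone ABCA1 rose in KO1 (log2 fold change 1.01, SE 0.19, adjusted p = 0.00688), and against controls 1 and 2 alone it did not pass (0.34, adjusted p = 0.219). ABCG1, which passes sterol to high-density lipoprotein, had 1.28 and 3.05 CPM in KO2 and 7.55 and 7.28 CPM in KO1, against 1.42, 1.36, 2.87 and 5.18 CPM in control. Both KO1 libraries were above all others, at 2.74 times the control mean. The KO1 comparison missed the threshold (1.45, SE 0.61, adjusted p = 0.126) and passed against controls 1 and 2 alone (log2 fold change 2.39, adjusted p = 0.0162) but not against controls 3 and 4 alone (0.89, adjusted p = 0.344). Differences between lines did not pass for ABCA1 (-0.78, SE 0.27, adjusted p = 0.0889) or ABCG1 (-1.77, SE 0.75, adjusted p = 0.164).

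**Figure D4:**
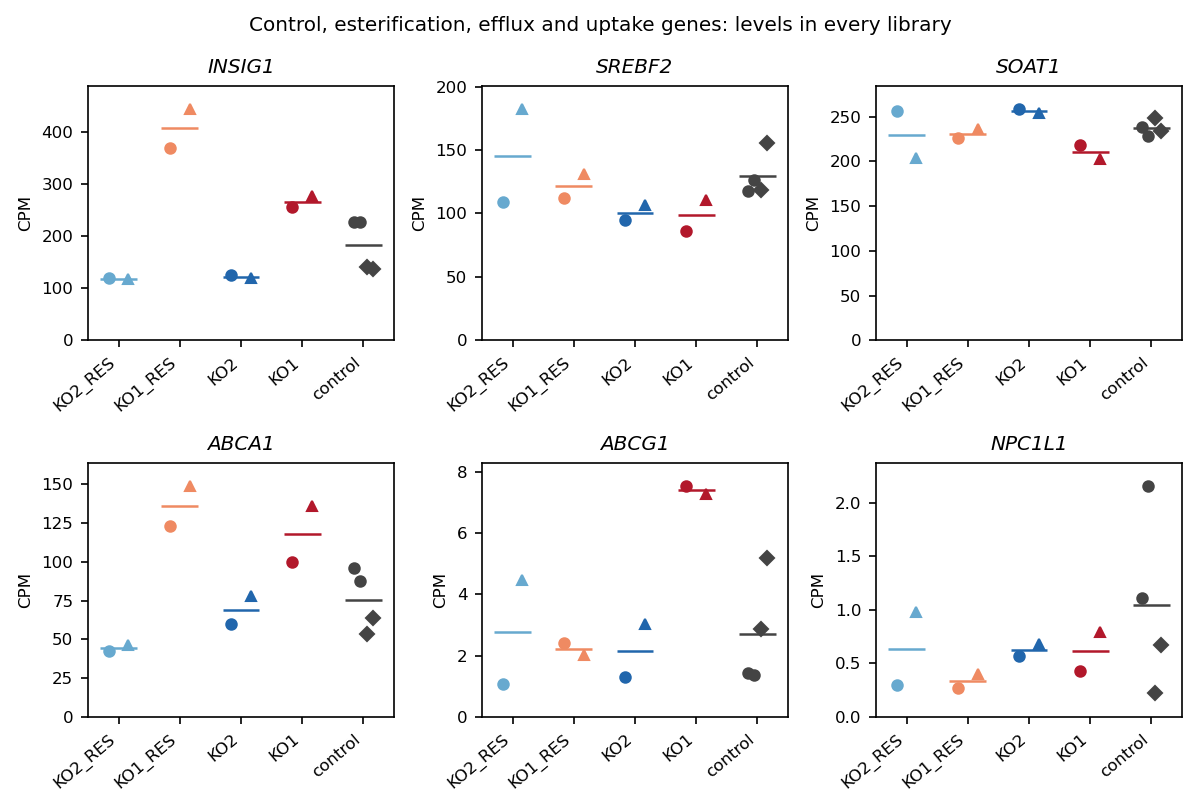
CPM of INSIG1, SREBF2, SOAT1, ABCA1, ABCG1 and NPC1L1 in every library, with symbols as in the plot of synthesis genes and lines as group means. INSIG1 is above every control in both groups of line 1 and below every control in both groups of line 2, ABCA1 is above every control in both groups of line 1 and within the control range in KO2, and ABCG1 is highest in KO1 at 7.55 and 7.28 CPM.

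Rescue against knockout asks which levels move when HKDC1 is put back. No member passed, and 0% of 19200 genes were called in the 3-group edgeR fit, with 0 members called by DESeq2. In that edgeR fit 2 members had an unadjusted p under 0.05, a threshold at which no share of all genes was counted. HKDC1 itself did not pass in that fit, at 3.15 (SE 0.42, adjusted p = 0.156). The libraries pair by line and number. With that pairing as a replicate block, 0 of 27 members passed, and 0.0437% of 18293 genes were called. While 7 members had an unadjusted p under 0.05, all genes were not counted at that threshold, so the 7 cannot be set beside a share. HKDC1 did pass in the block, at 3.15 on the log2 scale (SE 0.19, adjusted p = 0.00346). The median in the block was 0.15 over all members and 0.15 over the 19 synthesis enzymes, of which 18 had positive fold changes, against -0.0036 over all genes. SOAT2 had too few counts for this fit.

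**Figure D5:**
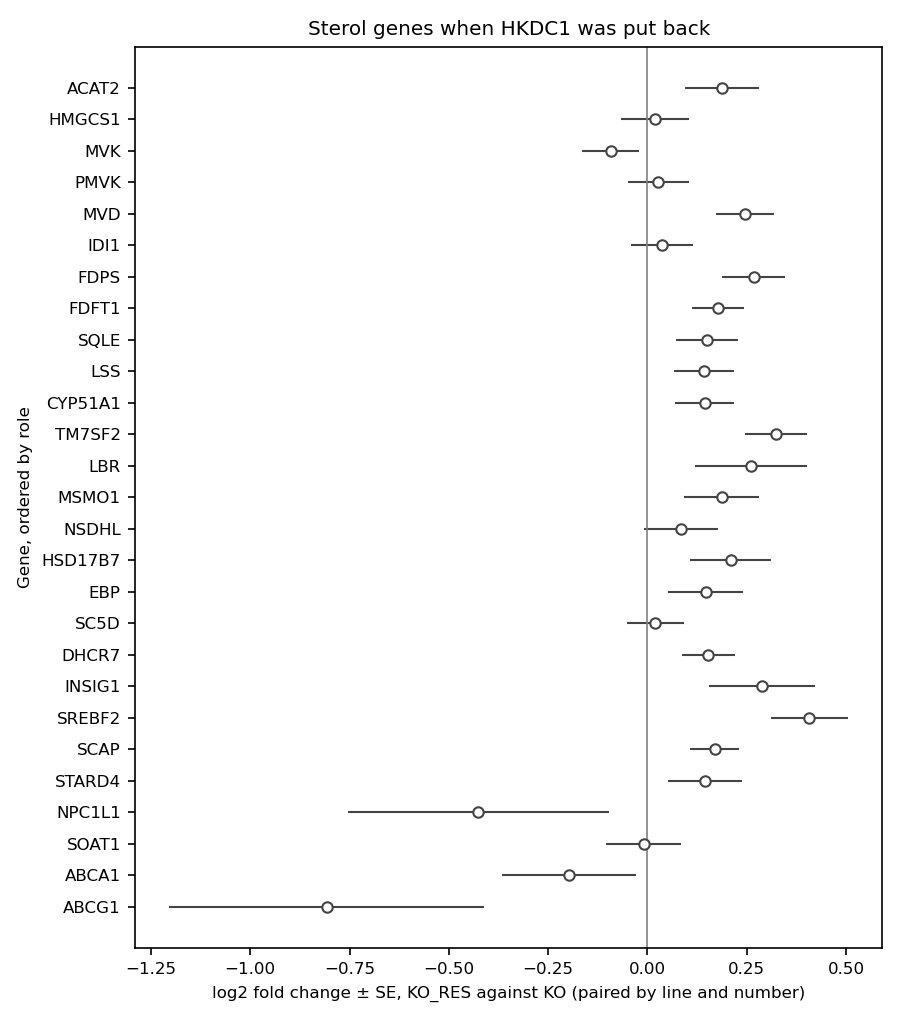
Log2 fold change of KO_RES against KO with its standard error for the 27 genes tested, from the fit that pairs libraries by line and number. All symbols are open because no gene passed; SREBF2 is highest at 0.41 and ABCG1 lowest at -0.81.

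SREBF2 had the largest positive value. It was at 112, 131, 109 and 182 CPM in KO_RES 1_1, 1_2, 2_1 and 2_2, against 86.3, 111, 94.7 and 106 CPM in the matching KO libraries. Each rescue library was above its pair, and KO_RES 2_2 was above all other libraries, controls included. The paired log2 fold change was 0.41 (SE 0.10, adjusted p = 0.173). TM7SF2 was at 56.7, 56.2, 51.4 and 60.1 CPM in KO_RES, against 41.9, 42.2, 41.6 and 55.2 CPM in KO. Again each rescue library was above its pair, though KO_RES 2_1 was below KO 2_2 (paired log2 fold change 0.32, SE 0.08, adjusted p = 0.173). FDPS was at 257, 264, 285 and 328 CPM in KO_RES, against 207, 198, 282 and 265 CPM in KO (0.27, SE 0.08, adjusted p = 0.226), with the pair 2_1 almost equal.

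In 9 of the 27 members the rescue library was above its knockout in all 4 pairs: MVD, FDPS, FDFT1, SQLE, CYP51A1, TM7SF2, DHCR7, SREBF2 and SCAP. Any positive difference was counted, and SQLE was a near tie at 145 CPM in both libraries of pair 1_1. None was below in all 4. Over all genes 11.2% were above and 13.5% below in all 4 pairs. SCAP was the 1 member whose groups did not overlap, at 85.8, 90.1, 84.0 and 95.9 CPM in KO_RES, against 77.2, 83.8, 76.6 and 79.9 CPM in KO, where 0.682% of all genes were higher without overlap. Its paired log2 fold change was 0.17 (SE 0.06, adjusted p = 0.295). MVD and DHCR7 had paired log2 fold changes of 0.25 (SE 0.07, adjusted p = 0.222) and 0.15 (SE 0.07, adjusted p = 0.36).

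Within lines the rescue did not pass for any member either, with 0 called in KO2_RES against KO2 and 0 in KO1_RES against KO1 by edgeR and by DESeq2. Of all genes, 0.00486% and 0.195% were called at the adjusted threshold. There were 2 and 3 members at an unadjusted p under 0.05, for which no share of all genes was counted. INSIG1 had 370.3 and 444 CPM in KO1_RES, against 256 and 277 CPM in KO1, and 119 and 118 CPM in KO2_RES, against 125 and 119 CPM in KO2. The rescue libraries of line 1 were thus the highest of all, and those of line 2 were close to their knockouts. ABCG1 had 2.42 and 2.01 CPM in KO1_RES, against 7.55 and 7.28 CPM in KO1, both rescue libraries being inside the control range (-1.74, SE 0.75, adjusted p = 0.735). The rescue effect itself differed between lines for 0 members by edgeR, where 0% of genes were called, and for 0 members by DESeq2. By edgeR 1 member had an unadjusted p under 0.05, again without a share of all genes. ABCA1 had 42.4 and 46.1 CPM in KO2_RES, against 59.6 and 77.9 CPM in KO2, with the rescue lower in both pairs (log2 fold change -0.64, unadjusted p = 0.037 in the edgeR fit).

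The 8 synthesis enzymes lower in KO1 than in control were followed into its rescue, where none passed against KO1. HMGCS1 had 181 and 192 CPM in KO1_RES, against 191 and 163 CPM in KO1, and FDFT1 had 78.8 and 74.2 CPM in KO1_RES, against 72.0 and 62.5 CPM in KO1. ACAT2 had 169.7 and 149 CPM in KO1_RES, against 137 and 110.4 CPM in KO1. All KO1_RES libraries were below the lowest control for these 3 genes, while HKDC1 mRNA in them exceeded every control. As a share of the control mean, HMGCS1 was at 0.299 in KO1_RES and 0.284 in KO1, SQLE at 0.591 and 0.566, FDFT1 at 0.461 and 0.405, and MSMO1 at 0.542 and 0.473, in the same order of groups. The values were further apart for ACAT2 (0.572 in KO1_RES and 0.443 in KO1), FDPS (0.603 and 0.469), TM7SF2 (0.599 and 0.447) and EBP (0.722 and 0.574). All 8 shares were higher in KO1_RES than in KO1 and below the control mean. The 8 were picked for low values in those KO1 libraries, so this count is no test of a rise on rescue. In pair 1_1 HMGCS1 and MSMO1 were lower in the rescue library, at 0.944 and 0.985 times its knockout. SQLE was a near tie there and the others were higher, while in pair 1_2 all 8 were higher.

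Set against control, 1 member was lower in KO_RES, TM7SF2, where 3.29% of all genes were called lower. It had 56.7, 56.2, 51.4 and 60.1 CPM in KO_RES, against 103, 112, 73.1 and 88.6 CPM in control, without overlap, at a log2 change of -0.75 (SE 0.14, adjusted p = 0.0126). Against controls 3 and 4 alone it was -0.52 (adjusted p = 0.113), and 0 members were called there by edgeR, where 1.33% of all genes were called lower. At an unadjusted p under 0.05 there were 2 members, and all genes were not counted at that threshold. Against controls 1 and 2 alone 9 members were lower, where 4.09% of all genes were. DHCR7 and SOAT2 also lay below control without overlap in KO_RES, as 7.46% of all genes did. The controls are shared by the KO and KO_RES comparisons, so their values are not independent of each other.

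The number within a line was also compared, because the genotype field splits the knockout and rescue libraries exactly by it. Between libraries numbered 2 and 1, with line and group in the fit, 15.7% of all genes passed and 2 of 27 members did. SREBF2 was higher in number 2 (log2 fold change 0.37, SE 0.10, adjusted p = 0.0352), and LSS was lower (log2 fold change -0.26, SE 0.08, adjusted p = 0.0491). SREBF2 had 111, 106, 131 and 182 CPM in KO 1_2, KO 2_2, KO_RES 1_2 and KO_RES 2_2, against 86.3, 94.7, 112 and 109 CPM in the libraries numbered 1 of the same lines and groups. Each library numbered 2 was above its partner. What the number stands for is not given. HKDC1 had -0.08 (SE 0.18, adjusted p = 0.768) by number, whereas by title every KO_RES library was above every KO library. With groups taken from the genotype field, TM7SF2 was lower than control in KO_RES (-0.82, adjusted p = 0.0103) and in KO (-0.97, adjusted p = 0.00487). The other members called were EBP (-0.60, adjusted p = 0.0362) and DHCR7 (-0.48, adjusted p = 0.0277) in KO_RES, and MSMO1 (-1.02, adjusted p = 0.0198) in KO. All were lower than control. Over all genes, 1874 were called in KO_RES and 1883 in KO, in either direction.

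A further 34 genes of sterol biology outside the 28 were counted, of which 31 were tested. In KO against control 1 was higher, DHDDS, which acts in dolichol synthesis, and 2 were lower, SCARB1 and LIPA, where 2.87% of all genes were called higher and 3.41% lower. SCARB1, the high-density lipoprotein receptor, fell, at -0.998 on the log2 scale (SE 0.19, adjusted p = 0.0102), and LIPA, the lysosomal cholesteryl ester hydrolase, was at -0.47 (SE 0.11, adjusted p = 0.0325). In KO_RES against control, DHDDS was higher and SCARB1, MBTPS1 and NR1H2 were lower, where 2.18% of all genes were called higher and 3.29% lower. MBTPS1 is a protease that cleaves SREBP2, and NR1H2 is an LXR receptor. Their median was -0.10 in KO and -0.21 in KO_RES, against 0.01 and 0.02 over all genes.

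By line, 5 of these 31 fell in KO2 (LIPA, NR1H3, LPCAT3, SCARB1 and MBTPS1), where 5.24% of all genes fell. In KO1, 4 fell (FAXDC2, LPCAT3, SCARB1 and TMEM97) and 2 rose (DHDDS and GRAMD1B), where 9.74% of all genes fell and 8.36% rose, shares close to those of the list. SCARB1 and LPCAT3, a phospholipid remodelling enzyme that LXR raises, thus fell in each line. NR1H3, the LXR receptor of liver and macrophages, was lower in KO2 than in KO1 by -1.18 (SE 0.26, adjusted p = 0.016). LPCAT3 (0.59, SE 0.15, adjusted p = 0.027) and NFYB (0.94, SE 0.26, adjusted p = 0.0408) were higher in KO2 than in KO1. Of all genes, 12% passed that test between lines. No gene of this list passed for rescue against knockout in the 3-group fit by edgeR, with 0 at an unadjusted p under 0.05.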

How the data were processed

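Per the submitters' processing notes, the authors used STAR 2.6.0b and GRCh37; the deposited values are raw counts per gene from stranded mRNA libraries, per the labels' protocols. Trimming and filters were not given in the sources used here. The stranded column was used, since its total was 19.8 to 21.1 times that of the other strand. The 4 lines of unassigned reads, 23.2% to 31.5% of all reads, were left out. Depth lay between 36075411 and 71853616 counts over genes. A value of 0 to 3 counts was read as the floor, which covers counting error only.

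Symbols were matched by identifier, first from a list of gene names and then from GENCODE 29, whose exon lengths and chromosomes were also used. Differential tests used edgeR 4.0.16 under R 4.3.3, with filterByExpr, TMM scaling, quasi-likelihood tests and Benjamini-Hochberg adjustment over all genes tested. A fit of 3 groups tested 19200 genes (biological coefficient of variation 36.2%) and a fit of 5 groups 20559 genes (25.8%). Levels are CPM, counts scaled to 1000000 per library after TMM. The code was tested on simulated counts. No 2 libraries agreed within sampling noise. The difference between 2 libraries, as a chi-square per gene, was 11.3 for controls 1 and 2 and 40.1 for controls 3 and 4. It was 177 to 219 between those pairs. Within a line it was 54.2 and 49.4 in KO and 51.6 and 151 in KO_RES, against 196 to 235 and 182 to 299 between lines. The 3-group fit takes the 4 libraries of a group as separate replicates and does not model these pairs.

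Line and number pair the knockout and rescue libraries: deviations from group means correlated at 0.778, 0.829, 0.849 and 0.767 in the 4 pairs, across genes. With the rescue library of the same line but other number, KO 1_1, 1_2, 2_1 and 2_2 correlated at 0.693, 0.603, 0.341 and 0.605. Part of the likeness within pairs was thus shared by the line. A replicate block over these 8 libraries was therefore also fitted.

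The settings varied were DESeq2 1.42.0, RLE scaling, unstranded counts, no filter, either pair of controls, groups by the genotype field or only the 8 libraries where it and the title give the same group, only the groups compared, both lines averaged, and leaving out each library. The block without each pair and the comparison by number were chosen after the data were seen. The members and gene lists were chosen with earlier results of these data known, and some genes of the list of other sterol genes are not reported here. Every member is described, with values per library for those called in a comparison of the 3-group or 5-group fit or by number.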

Additional observations from a re-analysis of the deposited data

Results flagged for a closer look

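In KO, TM7SF2 had 3 libraries close together and a highest library, KO 2_2, at 55.2 CPM, with a gap to the next library of 0.956 of the group's range. In KO_RES, HSD17B7 had its lowest library, KO_RES 2_1, at 28.9 CPM, with a gap of 0.876 of the range. These were the 2 isolated libraries among 84 combinations of member and group examined, and about 5% would stand apart in this way by chance. The knockout lines differed for 3 members in the edgeR test of KO2 minus KO1, with adjusted p-values given in the results: ACAT2 by a log2 fold change of 0.98, FDFT1 by 0.99 and INSIG1 by -1.13. Of all genes, 12% passed the same test, a share similar to that of the 28 members. Causes were not tested.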

How the results depend on the processing

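No called result turned round, and of the values recomputed for each member, comparison and setting, 4568 stayed on their side of the threshold, 80 lost a call and 101 gained one. Most of the 4568 belonged to members not called to begin with, so that number does not measure how stable the calls were. In KO against control, the call was kept in 21 of 22 alternatives for TM7SF2, 12 for MSMO1, 11 for DHCR7 and 9 for FDPS. MVD in KO2 kept its call in 7 of 18. RLE scaling and unstranded counts left every count as it was, so the following counts of members called come from the other settings. KO against control, 4 in the 3-group fit, gave 12 with both lines averaged, 8 with DESeq2, 10 with controls 1 and 2, 1 with controls 3 and 4, 2 by the genotype field, 0 with the 8 libraries whose labels match, 1 with only the groups compared, and 1 to 6 leaving out a library. Calls over all genes in this comparison moved too: 1206 in the 3-group fit, 3312 with both lines averaged, 2287 with DESeq2, 1485 with controls 1 and 2, 337 with controls 3 and 4, 1883 by the genotype field, 72 with the 8 libraries and 1233 with only the groups compared. KO_RES against control, 1, gave 4, 2, 9, 0, 3 and 0 in the first 6 of these settings, and 1 to 2 leaving out a library. Its calls over all genes went from 1050 to 3171, 2042, 1440, 384, 1874 and 64 in the same settings. KO2 against control, 2, gave 5 with DESeq2, 8 without the filter, 14 with controls 1 and 2, 1 with controls 3 and 4, and 0 to 4 leaving out a library. Over all genes, 2062 calls in KO2 became 2990, 3385, 3861 and 2136, and 530 to 2331 leaving out a library. KO1 against control, 9, gave 18 without the filter, 16 with controls 1 and 2, and 2 to 13 leaving out a library. Over all genes, 3721 calls in KO1 became 4922 and 4937, and 1265 to 4193 leaving out a library. KO2 minus KO1, 3, gave 5 with DESeq2, 8 without the filter, and 0 to 4 leaving out a library. Over all genes, 2463 calls in that test became 3263 and 3522, and 854 to 2775 leaving out a library. Without the filter, KO1_RES against KO1 and the difference of rescue effects each gained 1, ABCG1, where calls over all genes went from 40 to 548 and from 0 to 192. KO_RES against KO stayed at 0 under every setting, the replicate block included (0 of 27, with or without each pair), which was fitted for this comparison alone and changed the call of HKDC1 but of no member. The cause of these changes was not tested. Depth limited SOAT2 and NPC1L1.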
